A study of Mus with 14 samples.

Results

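Ckm (ENSMUSG00000030399), the gene of the muscle form of creatine kinase, was followed through 14 single-cell RNA libraries of mouse bone marrow progenitors, with Ckb and Ckmt1 as paralog references. These are 3 of the 32285 genes in the files, and they were chosen by name after Ckm had been seen to differ between genotypes in these data. Ckm levels by genotype are therefore given as a description, without a test. Tests are given for the paralogs, for genes of creatine handling, for neighbours of Ckm on its chromosome, and for Tnfrsf1a and Dnmt3a. Differences between cell lineages within a mouse and ratios of Ckm between lineages across genotypes were also tested. Other genes named beside Ckm are described without a test.

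Creatine kinases move a phosphate group between ATP and creatine, so that cells with sudden energy demand can regenerate ATP. Ckm encodes the cytosolic subunit of skeletal and heart muscle, Ckb the cytosolic subunit of brain and many other tissues, and Ckmt1 the ubiquitous mitochondrial form. Ckm is best known as a muscle gene and is not a usual marker of blood progenitors.

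Each library came from 1 mouse that had received a secondary bone marrow transplant, an aged CD45.1+ host given lethal irradiation and harvested 20 weeks later. Donor-derived cells were sorted as Lin-Kit+CD45.2+, so they lacked markers of mature lineages and carried the stem cell factor receptor Kit. The labels give 4 genotypes. MxCre (n = 3) carries the inducible recombinase alone, Dnmt3a (n = 4) adds the altered DNA methyltransferase gene, and Dnmt3a;Tnfr1KO (n = 3) and Dnmt3a;Tnfr2KO (n = 4) add loss of a receptor for tumour necrosis factor. The labels do not name the Dnmt3a or receptor alleles, or the strain. All 4 groups share the competitive primary transplant, in which hosts received CD45.2+ cells with CD45.1+ competitor marrow and, 1 month later, poly(I:C), which turns on the Mx promoter of the recombinase. The labels do not say which primary host supplied which mouse, so a donor may be common to several mice, and p-values then measure only the spread between these samples.

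Between 1924 and 7265 cells were kept per library (66895 in all), with a median depth of 10575 to 39086 UMIs (unique molecular identifiers, the counted RNA molecules) per cell. Dnmt3a replicate 1 stood apart, since 26.5% of its barcodes were kept against 63.2% to 91.6% in the others. Dnmt3a replicate 4 stood apart in its cells, since 37.4% were placed as B-lymphoid and 15.8% as maturing neutrophils, against at most 3.95% and 0.639% in the other Dnmt3a libraries, and it had the lowest median depth. Without replicate 1 or replicate 4, the log2 fold change of Ckm against Dnmt3a was 3.65 or 3.84 in Tnfr1KO-labelled and 3.35 or 3.55 in Tnfr2KO. No pair of libraries shared more than 16 cell barcodes. Levels are UMIs per 1000000 UMIs of a library (CPM) after TMM scaling, except for barcodes under 1000 UMIs, where they are unscaled. Kit (73.4 to 155 CPM) and Ptprc, the leukocyte antigen CD45 (73.7 to 141 CPM), were present in each library. Tnfrsf1b, which encodes Tnfr2, averaged 5.10 CPM ± 0.531 (SD, n = 4) in Tnfr2KO against 13.7 ± 1.38 (n = 4) in Dnmt3a, and the groups did not overlap. Tnfrsf1a, which encodes Tnfr1, averaged 38.3 CPM ± 4.29 (SD, n = 3) in the libraries labelled Tnfr1KO against 43.6 ± 9.25 (n = 4) in Dnmt3a and was not called lower (log2 fold change -0.19, SE 0.19, edgeR adjusted p = 0.603). Dnmt3a itself averaged 24.6 CPM ± 3.20 (SD) in MxCre, 30.5 ± 2.11 in Dnmt3a, 21.9 ± 0.585 in Tnfr1KO-labelled and 23.7 ± 1.19 in Tnfr2KO. Both receptor groups lay below the Dnmt3a group without overlap, but edgeR did not call these differences (adjusted p = 0.0509 and 0.0664). The share of all genes without overlap in these 2 comparisons was not counted. By edgeR, 19.9% and 23.1% of all tested genes passed an unadjusted p under 0.05 in them. Reads from the 3′ end can lie outside a deleted part of a gene, so the Tnfrsf1a and Dnmt3a levels check neither way, and the group with the Tnfr1KO label is called Tnfr1KO-labelled below.

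Ckm was low in the groups with both receptors and high in both receptor groups. In MxCre, replicates 1 to 3 held 6.76, 10.1 and 6.40 CPM. In Dnmt3a, replicates 1 to 4 held 5.12, 11.7, 20.3 and 10.6 CPM. These groups overlapped, with means of 7.74 CPM ± 2.01 (SD, n = 3) and 11.9 ± 6.29 (SD, n = 4). Tnfr1KO-labelled replicates 1 to 3 held 187, 136 and 212 CPM, a mean of 178 ± 38.6 (SD, n = 3). Tnfr2KO replicates 1 to 4 held 214, 165, 84.8 and 119 CPM, a mean of 146 ± 56.2 (SD, n = 4). Every library with a receptor label lay above every library without one, and the lowest of them, Tnfr2KO replicate 3, was 4.17 times the highest of Dnmt3a, replicate 3. The Tnfr1KO-labelled and Tnfr2KO groups overlapped each other.

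Group means were 14.9 times (Tnfr1KO-labelled) and 12.2 times (Tnfr2KO) the Dnmt3a mean, and 23.0 and 18.8 times the MxCre mean. Both receptor groups were set against the same Dnmt3a libraries. In the fit across all 15618 tested genes, the log2 fold change of Ckm was 3.90 (SE 0.41) for Tnfr1KO-labelled against Dnmt3a and 3.61 (SE 0.39) for Tnfr2KO against Dnmt3a. It was 0.63 (SE 0.39) for Dnmt3a against MxCre and -0.29 (SE 0.38) for Tnfr2KO against Tnfr1KO-labelled. The 0.63 was 0.25 without Dnmt3a replicate 3 or with equal weight per lineage, and the -0.29 was -0.10 without Tnfr2KO replicate 3 and -0.54 without Tnfr2KO replicate 1. By the size of its log2 fold change Ckm ranked 13th and 24th from the top of all tested genes in the first pair of these comparisons. Where only genes averaging 10 CPM or more in 1 of the groups were counted, it ranked 1st of 7699 and 3rd of 7698. This cut left out genes with larger changes at lower levels, such as Lhfpl4. Ckm was chosen for its difference between genotypes, so all of these ranks follow from that choice and are no further support. Over both receptor groups together, 78 of 15618 genes (0.499%) separated the 7 labelled libraries from the other 7 without overlap, and 25 (0.16%) did so with means at least 2-fold apart, of which 7 (0.0448%) were higher and 18 (0.115%) lower in the labelled libraries. Ckm was among the 25, as its choice fixed.

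**Figure D1:**
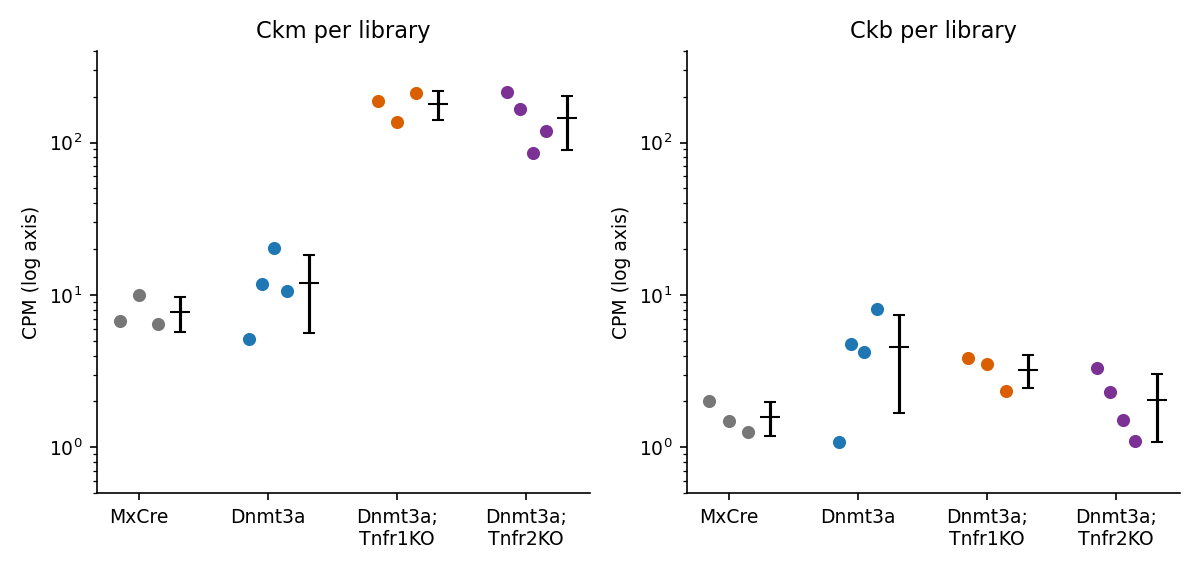
Ckm and Ckb in each of the 14 libraries, in CPM on a log axis, by genotype; points are libraries, in order of replicate from left to right, and bars are the mean ± SD. Ckm lies between 84.8 and 214 CPM in the 7 receptor-labelled libraries and between 5.12 and 20.3 CPM in the other 7, while Ckb stays at or below 8.03 CPM in every library.

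Ckm was carried by many cells. In MxCre a Ckm UMI was found in 10.9% of cells (SD 2.45, n = 3), and Dnmt3a had 20.5% such cells (SD 8.54, n = 4). The share was 67.7% for Tnfr1KO-labelled (SD 6.96, n = 3) and 68.0% for Tnfr2KO (SD 9.50, n = 4). Since deeper cells show a gene more often, each cell was also thinned to 5000 UMIs, leaving out 60 to 1819 shallower cells per library. The shares were then 3.16% ± 0.952 (SD, n = 3), 4.93% ± 2.94 (n = 4), 47.1% ± 8.05 (n = 3) and 40.7% ± 10.4 (n = 4) in the same order. Between 27.1% and 54.2% of thinned cells were positive in the receptor-labelled libraries, and between 2.44% and 9.02% in the others. The separation of the 7 libraries from the other 7 was thus present at equal depth.

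The amount per positive cell also differed. A positive cell held 1.499 ± 0.0793 Ckm UMIs (SD, n = 3) in MxCre and 1.64 ± 0.116 (n = 4) in Dnmt3a. In Tnfr1KO-labelled it held 5.70 ± 1.27 (SD, n = 3), and 4.15 ± 1.39 (SD, n = 4) in Tnfr2KO. No cell of MxCre or Dnmt3a held 10 or more Ckm UMIs, and the highest count in any of their cells was 9. In the library with the fewest cells, 0 of 1924 cells allows a share of up to 0.156%, for counting error only. In Tnfr1KO-labelled, 6.28%, 11.5% and 20.3% of cells in replicates 1 to 3 held 10 or more, with a highest count of 40. In Tnfr2KO, replicates 1 to 4 had 6.15%, 14.7%, 0.262% and 2.27% of such cells. Both measures depend on depth and were not thinned, and the share did not follow the level in every pair of libraries. Tnfr2KO replicate 1 had the higher level and the lower share of replicates 1 and 2, with a median depth of 17035 against 23745 UMIs.

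Ckb did not separate the 7 receptor-labelled libraries from the other 7. Ckb (ENSMUSG00000001270) held 2.02, 1.49 and 1.25 CPM in MxCre replicates 1 to 3, and 1.09, 4.73, 4.25 and 8.03 CPM in Dnmt3a replicates 1 to 4. It held 3.83, 3.49 and 2.34 CPM in Tnfr1KO-labelled and 3.29, 2.32, 1.51 and 1.09 CPM in Tnfr2KO. The groups of each of the 4 comparisons tested overlapped, and Dnmt3a had the widest spread, with replicate 1 lowest and replicate 4 highest. The Tnfr1KO-labelled libraries lay above those of MxCre (lowest 2.34 against highest 2.02 CPM, a ratio of means of 2.03), while Tnfr2KO overlapped MxCre (ratio 1.29), and neither pair was tested. How many of all genes lie apart in this way between Tnfr1KO-labelled and MxCre was not counted, so it is not read as a trait of Ckb. Ckb was not called in any comparison by edgeR's quasi-likelihood test. For Dnmt3a against MxCre, where 380 genes (2.43%) were called, its log2 fold change was 1.51 (SE 0.53, adjusted p = 0.112). DESeq2, which called 10.3% of the genes it adjusted in this comparison, called this difference (adjusted p = 0.0263), and the adjusted p ranged from 0.0263 to 0.308 over the alternatives. Without Dnmt3a replicate 4 the log2 fold change was 1.08 (edgeR adjusted p = 0.197).

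Against Dnmt3a, Ckb had log2 fold changes of -0.49 (SE 0.51, edgeR adjusted p = 0.617) in Tnfr1KO-labelled, where 69 genes (0.442%) were called, and -1.14 (SE 0.47, edgeR adjusted p = 0.176) in Tnfr2KO, where 138 (0.884%) were called. Without Dnmt3a replicate 4 these were -0.06 and -0.71 (edgeR adjusted p = 0.955 and 0.384). For Tnfr2KO against Tnfr1KO-labelled, with 30 genes (0.192%) called, it was -0.65 (SE 0.50, edgeR adjusted p = 1.00). At an unadjusted p under 0.05 Ckb passed in 2 of the 4 comparisons, Dnmt3a against MxCre and Tnfr2KO against Dnmt3a, where 23.7% and 23.1% of all tested genes did so. A Ckb UMI was present in 1.55% to 4.36% of cells per library. Ckmt1 (ENSMUSG00000000308) was barely detected, with 6 UMIs in 5 of 14 libraries against 4351 for Ckb and 128072 for Ckm. It was filtered out as too low to test, and in libraries without a Ckmt1 UMI, 3 UMIs would correspond to 0.021 to 0.0508 CPM.

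Within the receptor-labelled mice, Ckm was highest in granulocyte and monocyte progenitors. Cells were placed in lineages by the UMIs of fixed marker genes, and 33928 of 66895 cells (50.7%) passed that rule. In 8372 cells (12.5%) the best marker score lay within 0.1 of its minimum, so these classes are ranges of a score and not closed types. Granulocyte cells (Elane, Prtn3, Ctsg, Mpo, Cebpe, Fcnb) averaged 220 CPM ± 70.0 (SD, n = 7 mice), against 150 CPM in all other cells of the same mice. Monocyte cells (Irf8, Csf1r, Ly86 and others) averaged 195 CPM ± 58.1 (SD, n = 7) against 152. Both were higher in 7 of 7 mice (exact sign-flip permutation test, two-sided, p = 0.0156, the smallest 7 mice allow, and 0.0179 after adjustment over 8 lineages).

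Stem and multipotent cells (HSC/MPP: Hlf, Mecom, Procr and others) averaged 39.3 CPM ± 9.16 (SD, n = 7) against 161 in other cells. Erythroid cells (Klf1, Car1, Ermap and others) averaged 22.5 CPM ± 11.5 (SD, n = 7) against 171, and megakaryocyte cells (Pf4, Itga2b, Vwf and others) 23.5 CPM ± 10.1 (SD, n = 7) against 163. Maturing neutrophils (Camp, Ltf, Ngp and others), which follow granulocyte progenitors in development, averaged 21.1 CPM ± 12.7 (SD, n = 7) against 161. These 4 lineages were lower in 7 of 7 mice, each with the same exact p of 0.0156 (adjusted 0.0179). Lymphoid-primed cells (Dntt, Flt3, Il7r, Satb1) averaged 134 CPM ± 38.8 (SD, n = 7) against 160 and were lower in 7 of 7 mice with the same exact p. With the minimum of marker UMIs doubled their adjusted p was 0.0714. Basophil and mast cell progenitors (Mcpt8, Prss34, Ms4a2 and others), at 156 CPM ± 60.2 (SD, n = 7) against 160, were lower in 4 of 7 mice (exact p = 0.719). The other cells in these tests include the granulocyte and monocyte cells and cells placed in no lineage. Differences without the granulocyte and monocyte cells were not tested. The lymphoid-primed mean, though below that of other cells, was above the means of the 4 lineages named before it.

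The classes overlapped in their markers. Over cells, the monocyte class held a median of 16.3 own-marker UMIs and 171 granulocyte-marker UMIs per 10000, and the lymphoid-primed class held 4.03 own-marker and 21.3 granulocyte-marker UMIs. The HSC/MPP class held 6.14 own-marker and 5.85 granulocyte-marker UMIs, the megakaryocyte class 17.3 and 1.80, and the erythroid class 28.5 and 1.31. The basophil and mast cell class held 10.4 and 18.0, and maturing neutrophils held 4145 own-marker and 11.1 granulocyte-marker UMIs. The part of this overlap in the Ckm differences between classes was not tested. Only 49 cells were placed as dendritic cells and 223 as T, NK or innate lymphoid cells, and their Ckm was not described. B-lymphoid cells numbered 3 to 11 per Tnfr2KO library, too few for a value. In Tnfr1KO-labelled replicates 1 to 3 they held 34.4, 3.77 and 7.10 CPM of Ckm, on 3, 5 and 3 UMIs. In Dnmt3a they averaged 1.09 CPM over the 3 libraries with enough cells, on 9 UMIs.

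**Figure D2:**
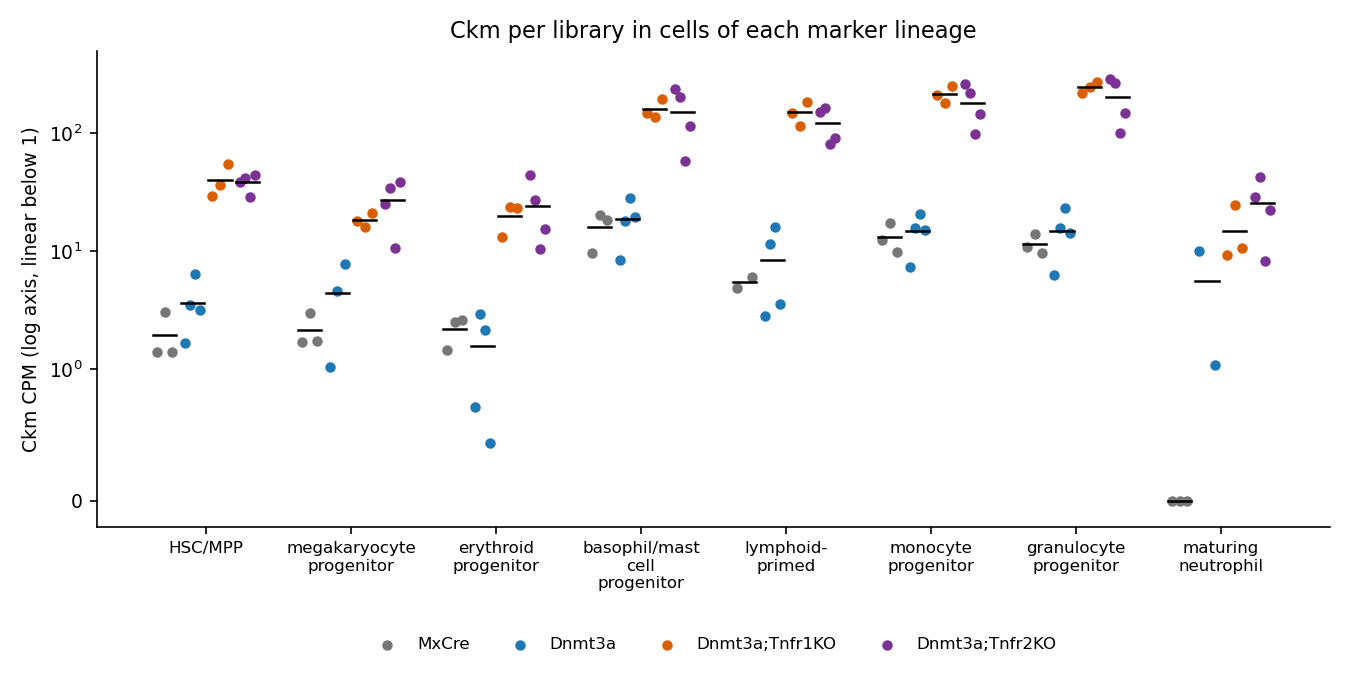
Ckm CPM in the cells of each marker lineage, on an axis that is logarithmic above 1 CPM and linear below, by genotype; points are libraries with at least 20 such cells and black lines are group means. In receptor-labelled mice granulocyte cells averaged 220 CPM and erythroid cells 22.5 CPM, and the maturing neutrophils of MxCre hold no Ckm UMI.

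Where Ckm was low, the granulocyte, monocyte and basophil and mast cell progenitors were again above HSC/MPP and erythroid cells. In MxCre, granulocyte cells averaged 11.5 CPM ± 2.26 (SD, n = 3), monocyte cells 13.3 ± 3.82 and basophil and mast cell progenitors 16.1 ± 5.69, against 1.95 ± 0.948 in HSC/MPP and 2.202 ± 0.638 in erythroid cells. In Dnmt3a the same lineages held 15.0 ± 7.02, 14.8 ± 5.54, 18.6 ± 8.16, 3.68 ± 1.98 and 1.57 ± 1.19 CPM (SD, n = 4). Of the 5 lineages with at least 20 cells in every library, the granulocyte, monocyte and basophil and mast cell progenitors lay above HSC/MPP and erythroid cells in 14 of 14 libraries. Erythroid cells were lowest in 11 libraries and HSC/MPP cells in 3. The highest of the 5 was granulocyte in 7 of 7 receptor-labelled libraries, but basophil and mast cell in 6 and monocyte in 1 of the other 7, a difference that was not tested. In those 6 the basophil and mast cell class held only 8 to 83 Ckm UMIs, the 8 being in 29 cells of Dnmt3a replicate 1. The log2 ratios of HSC/MPP and of erythroid to granulocyte cells were compared between groups in 8 exact permutation tests, and none passed (lowest adjusted p = 0.152). Of the 8, 6 compared 3 mice with 4, for which the smallest exact p is 0.0571, so they could not pass, and 3 of them reached that p. These 3 were HSC/MPP for Dnmt3a against MxCre and for Tnfr1KO-labelled against Dnmt3a, and erythroid cells between the receptor groups.

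The difference between genotypes was found in nearly all lineages. The lineages are parts of the libraries for whose difference Ckm was chosen, so their values describe where it lay and are no further support. How many of all genes separate the groups within a lineage was not counted. Against Dnmt3a, the Ckm fold of group means in Tnfr1KO-labelled was 16.4 in granulocyte, 14.5 in monocyte, 17.7 in lymphoid-primed, 11 in HSC/MPP, 12.8 in erythroid, 8.61 in basophil and mast cell and 4.12 in megakaryocyte cells. In Tnfr2KO these folds were 13.5, 12.3, 14.4, 10.4, 15.6, 8.20 and 6.11. In 7 of 8 lineages each receptor group lay above Dnmt3a without overlap. The exception was maturing neutrophils, with folds of 2.68 and 4.62 on 14 Ckm UMIs in Dnmt3a and 48 and 63 UMIs in the receptor groups. Only 2 Dnmt3a libraries had enough such cells, replicate 3 at 10.04 CPM from 4 UMIs in 1 of 35 cells and replicate 4 at 1.09 CPM over 859 cells. Leaving out each library in turn, an alternative chosen after seeing the data, gave folds of 13.6 and 23.5 without overlap when replicate 3 was left out, and 1.48 and 2.56 when replicate 4 was. The overlap was also absent without Tnfr1KO-labelled replicate 1 or Tnfr2KO replicate 3, in their own comparisons. The megakaryocyte folds rested on 3 Dnmt3a libraries, and without replicate 3 (7.78 CPM from 2 UMIs in 20 cells) they were 6.55 and 9.70. Leaving out 1 library moved the fold in no other of the 8 lineages by over 1.5 times. Cells placed in no lineage had folds of 13.7 and 11.1. With every lineage given equal weight the log2 difference was 3.67 for Tnfr1KO-labelled and 3.48 for Tnfr2KO.

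At 5000 UMIs per cell, 66.0% ± 6.41 (SD, n = 3) of granulocyte cells were Ckm-positive in Tnfr1KO-labelled and 57.1% ± 18.5 (n = 4) in Tnfr2KO. Erythroid cells were positive at 11.5% ± 1.90 (SD, n = 3) and 13.1% ± 6.52 (n = 4). HSC/MPP cells were positive at 13.7% ± 6.19 (SD, n = 3) and 16.1% ± 2.53 (n = 4). The median depth before thinning was lower in HSC/MPP cells (10145 UMIs, median of Tnfr2KO libraries) than in erythroid cells (18922) and granulocyte cells (28571). Barcodes under 1000 UMIs, which were not kept as cells, held 0 to 148 Ckm UMIs per 1000000 of their own UMIs, unscaled, in the 7 receptor-labelled libraries and 0 to 6.94 in the others. The part of free RNA from the droplets in the HSC/MPP and erythroid signal was not tested. In Dnmt3a, 8.22% ± 2.80 (SD, n = 4) of granulocyte and 1.02% ± 0.749 (n = 4) of erythroid cells were positive, and in MxCre 5.63% ± 2.22 (SD, n = 3) and 1.31% ± 0.626 (n = 3).

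**Figure D3:**
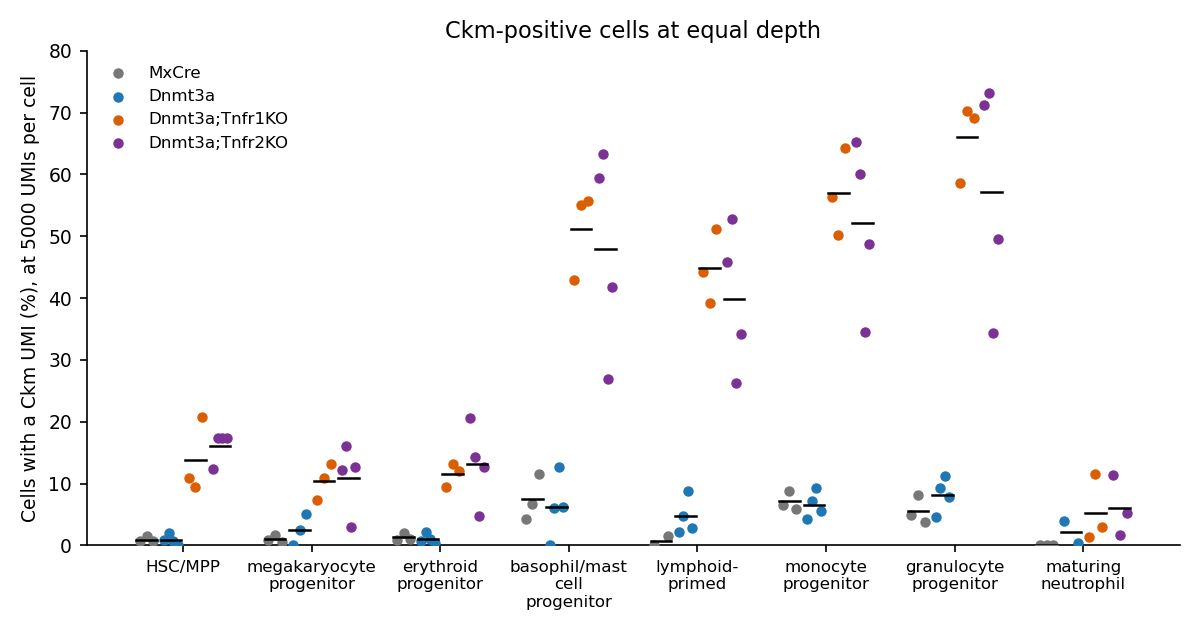
Percent of cells with a Ckm UMI after each cell was thinned to 5000 UMIs, by marker lineage and genotype; points are libraries and black lines are group means. Granulocyte cells reach 66.0% and 57.1% in the receptor groups, and erythroid, megakaryocyte and HSC/MPP cells stay at or below 20.8% in every library.

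Among the 9 lineages tested, the mean of Ckb over mice was highest in monocyte progenitors. Each lineage was tested over the mice with at least 20 of its cells, 8 to 14 of the 14, and dendritic and T, NK or innate lymphoid cells were not tested. In 4 of 14 libraries another class with 20 or more cells held more Ckb than monocyte cells. In Dnmt3a replicate 4 lymphoid-primed cells (35.5 CPM from 40 UMIs, in 6.96% of 115 cells) and dendritic cells (33.4 CPM from 10 UMIs, 21 cells) lay above monocyte cells (30.4 CPM). In Tnfr2KO replicate 1 lymphoid-primed cells (13.6 CPM from 15 UMIs, in 3.53% of 85 cells) lay above 12.4. In Tnfr1KO-labelled replicate 2 it was T, NK or innate lymphoid cells (14.8 CPM from 4 UMIs, against 10.5), and in MxCre replicate 1 B-lymphoid cells (14.9 CPM from 1 UMI, against 9.75). Ckb averaged 11.5 CPM ± 8.23 (SD, n = 14) in monocyte cells against 1.25 CPM in other cells of the same mice, and was higher in 14 of 14 mice (exact sign-flip permutation p = 0.000122, the smallest 14 mice allow, and 0.000366 after adjustment over 9 lineages). It was lower in granulocyte cells (0.254 CPM against 3.35) and erythroid cells (0.45 against 3.11) in 14 of 14 mice, with the same exact p. It was also lower in maturing neutrophils (0.766 against 2.98 over 12 mice, adjusted exact p = 0.00198), in basophil and mast cell progenitors (1.27 against 2.93, adjusted exact p = 0.00198) and in megakaryocyte cells (1.25 against 2.56 over 13 mice, adjusted exact p = 0.00659). In HSC/MPP cells it held 1.52 CPM against 2.92, lower in 10 and higher in 4 of 14 mice (adjusted exact p = 0.0168). With the marker minimum doubled this p became 0.0527. The other cells in these tests include the monocyte cells, and cells outside the monocyte class averaged 1.25 CPM. Basophil and mast cell, megakaryocyte and HSC/MPP cells were close to or above that level, and differences without monocyte cells were not tested. Lymphoid-primed cells averaged 6.48 CPM against 2.98 over 13 mice, and the test was not passed (adjusted exact p = 0.0703). Dnmt3a replicate 4 held 35.5 CPM against 0 to 13.6 in the other mice tested, and without it the difference of 3.499 CPM was 1.48 (adjusted exact p = 0.141). The test was passed without MxCre replicate 1 (0.028) and without Tnfr2KO replicate 3 (0.0489). B-lymphoid cells averaged 3.12 CPM against 3.41 over 8 mice (adjusted exact p = 0.938). Thus, by class means, granulocyte cells were high in Ckm and low in Ckb, while monocyte cells were high in both. Before thinning, a Ckb UMI was found in only 4.64% (Tnfr2KO replicate 4) to 20.8% (Dnmt3a replicate 4) of monocyte cells. The Ckb mean of this class thus came from a minority of its cells. Most monocyte cells held a Ckm UMI in the receptor-labelled libraries, but not in the others.

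Other genes of creatine and phosphate handling were measured as a list of 5. Of these, 4 were tested and none was called by edgeR in any of the 4 comparisons. DESeq2 called Ak1, a cytosolic adenylate kinase, for Dnmt3a against MxCre, where it called 10.3% of the genes it adjusted. It called no other member in any comparison. At an unadjusted p under 0.05 edgeR passed 1 member for Dnmt3a against MxCre (Ak1), 0 for Tnfr1KO-labelled, 1 for Tnfr2KO against Dnmt3a (Gatm) and 0 between the receptor groups. Over all tested genes the shares at this unadjusted p were 23.7%, 19.9%, 23.1% and 4.03% in that order. Gatm, the first enzyme of creatine synthesis, averaged 98.3 CPM (SD 16.1) for MxCre, 101 (SD 6.40) for Dnmt3a, 115 (SD 5.03) for Tnfr1KO-labelled and 127.6 (SD 26.5) for Tnfr2KO. Gamt, the second enzyme, held 6.68, 6.88, 7.22 and 8.59 CPM in that order, and the creatine transporter Slc6a8 0.221, 0.142, 0.168 and 0.129 CPM. The muscle mitochondrial kinase Ckmt2 had 3 UMIs in all libraries. The median log2 fold change of the list was 0.13 in Tnfr1KO-labelled and 0.33 in Tnfr2KO against Dnmt3a, beside -0.05 and -0.03 over all tested genes.

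Other muscle genes did not separate the groups as Ckm did. Of 20 skeletal muscle markers, Myod1, the master regulator of muscle fate, had 0 UMIs in every library. Acta1, the main actin of muscle, had 44 UMIs over all libraries and at most 7 in any, and the fast myosins Myh1, Myh2 and Myh4 had 2, 1 and 2 UMIs. The 20 markers summed to 5.79 to 7.42 CPM in MxCre, 4.71 to 9.92 in Dnmt3a, 6.41 to 8.39 in Tnfr1KO-labelled and 5.63 to 7.14 in Tnfr2KO, ranges that overlapped. The 7 markers with at least 10 UMIs in a library were Mylpf, Tnni2, Neb, Ttn, Atp2a1, Tnnt3 and Actn3. Mylpf, a fast-muscle myosin light chain, made up most of the sum, at 4.81 CPM (SD 0.848) for MxCre, 3.73 (SD 1.11) for Dnmt3a, 4.14 (SD 1.03) for Tnfr1KO-labelled and 3.92 (SD 0.604) for Tnfr2KO. Tnni2, a fast troponin, held 1.28, 2.16, 2.22 and 1.59 CPM in that order. With Mylpf left out, the sums were 1.80 to 1.91 CPM in MxCre, 2.03 to 4.63 in Dnmt3a, 3.11 to 3.13 in Tnfr1KO-labelled and 1.80 to 2.56 in Tnfr2KO. Dnmt3a and Tnfr1KO-labelled then lay above MxCre, while both receptor groups overlapped Dnmt3a. The overlap of Tnfr1KO-labelled rested on Dnmt3a replicate 4 (4.63 CPM), as replicates 1 to 3 held 2.03, 2.98 and 3.02 CPM. That of Tnfr2KO rested on Dnmt3a replicate 1. Markers of heart and slow muscle summed to 0.694 to 0.941 CPM in MxCre, 0.550 to 5.30 in Dnmt3a, 0.979 to 1.09 in Tnfr1KO-labelled and 0.517 to 1.63 in Tnfr2KO. Both receptor groups overlapped Dnmt3a, while Tnfr1KO-labelled lay above MxCre. The overlap of Tnfr1KO-labelled with Dnmt3a rested on Dnmt3a replicate 4 (5.30 CPM from 603 UMIs). Dnmt3a replicates 1 to 3 held 0.836, 0.550 and 0.784 CPM, below each Tnfr1KO-labelled library. Markers of stroma and bone summed to 2.69 to 18.2 CPM in MxCre, 3.24 to 7.78 in Dnmt3a, 1.89 to 17.03 in Tnfr1KO-labelled and 0.938 to 2.58 in Tnfr2KO. Each Tnfr2KO library thus lay below each MxCre and Dnmt3a library, but only narrowly below MxCre replicate 2 (2.69 CPM from 159 UMIs). Markers of endothelium summed to 28.8 to 39.4 CPM in MxCre, 41.3 to 59.5 in Dnmt3a, 31.8 to 41.1 in Tnfr1KO-labelled and 33.7 to 36.5 in Tnfr2KO. In endothelial markers Tnfr2KO lay below Dnmt3a and within the range of MxCre, while the highest Tnfr1KO-labelled library, replicate 1, was about level with the lowest of Dnmt3a. How many of all genes lie apart between these pairs of groups was not counted, so the separations are not read as traits of these markers. The part of these markers in the Ckm difference was not tested.

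Ckm lies on chromosome 7 of GRCm38 (chr7:19411094-19421583), Ckb on chromosome 12 (chr12:111669355-111672338) and Ckmt1 on chromosome 2 (chr2:121357773-121363737), by the RefSeq annotation of that build. The 10 protein-coding genes on each side of Ckm were examined. Gm38499 was not matched in the files, Rtn2 and Ppm1n were too low to test, and none of the 17 tested genes was called by edgeR in any comparison. At an unadjusted p under 0.05, 3 passed for Dnmt3a against MxCre, 5 for Tnfr1KO-labelled against Dnmt3a, 2 for Tnfr2KO against Dnmt3a and 1 between the receptor groups, beside the shares of 23.7%, 19.9%, 23.1% and 4.03% of all tested genes. DESeq2 called 1, 3, 2 and 0 in the same order: Trappc6a in the first, Ercc1, Cd3eap and Trappc6a in the next, and Cd3eap and Trappc6a in the third. Of all genes with an adjusted p, DESeq2 called 10.3%, 6.33%, 7.36% and 0.667%. The list's median log2 fold change was 0.02 in Tnfr1KO-labelled and 0.09 in Tnfr2KO against Dnmt3a.

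The adjacent genes, Klc3 and Mark4, were not called, and their means were lower in the receptor groups than in Dnmt3a. Klc3, a kinesin light chain, held 0.39, 0.25, 0.205 and 0.189 CPM in MxCre, Dnmt3a, Tnfr1KO-labelled and Tnfr2KO. Mark4, a kinase that acts on microtubules, held 9.65, 9.19, 7.44 and 7.83 CPM. Among the next genes on each side, Ercc2 and Ppp1r13l had log2 fold changes against Dnmt3a of 0.13 and -0.07 in Tnfr1KO-labelled and 0.10 and -0.22 in Tnfr2KO. Cd3eap, a subunit of RNA polymerase I, had 0.44 in both. Its 7 receptor-labelled libraries (lowest 49.1 CPM) lay just above the other 7 (highest 49.0 CPM), one of the 0.499% of genes without overlap. On the other side, Exoc3l2 had -0.45 and 0.09, Bloc1s3 0.15 and 0.16, Nkpd1 -0.03 and 0.36, and Trappc6a, a subunit of a vesicle transport complex, 0.58 and 0.55 (edgeR adjusted p = 0.072 and 0.0617). All of these start within 106.4 kb of the start of Ckm, and their log2 fold changes were small beside the 3.90 and 3.61 of Ckm. Trappc6a averaged 109 CPM in MxCre, 79.1 in Dnmt3a, 118 in Tnfr1KO-labelled and 116 in Tnfr2KO. For this gene both receptor groups overlapped MxCre.

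Ercc1, a DNA repair gene 67.0 kb upstream, varied within Tnfr2KO. It held 23.7, 17.8 and 17.1 CPM in MxCre and 13.1, 19.2, 24.5 and 19.8 CPM in Dnmt3a. It held 10.9, 9.63 and 8.09 CPM in Tnfr1KO-labelled, all below the lowest value of the previous groups, and 10.3, 9.69, 16.8 and 19.3 CPM in Tnfr2KO. Tnfr2KO replicates 1 and 2 thus lay within the range of Tnfr1KO-labelled and replicates 3 and 4 within the range of Dnmt3a. Ercc1 was not called by edgeR in Tnfr1KO-labelled (log2 fold change -1.01, SE 0.26, adjusted p = 0.0866) or in Tnfr2KO against Dnmt3a (-0.45, SE 0.23, adjusted p = 0.259). How many of all genes set Tnfr1KO-labelled apart from MxCre and Dnmt3a was not counted, so this is not read as a trait of Ercc1. For Tnfr1KO-labelled against Dnmt3a, 19.9% of all tested genes passed an unadjusted edgeR p under 0.05. The transcript A930016O22Rik (chr7:19417466-19421417) lies within the span of Ckm and had 71 UMIs in all libraries. Its means were 0.0048 CPM in MxCre, 0.016 in Dnmt3a, 0.0934 in Tnfr1KO-labelled and 0.073 in Tnfr2KO. It was not called by edgeR in Tnfr1KO-labelled (log2 fold change 2.31, adjusted p = 0.196) or Tnfr2KO (1.98, adjusted p = 0.198) against Dnmt3a. Whether the counting kept reads of overlapping genes apart by strand is not given in the sources used here.

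**Figure D4:**
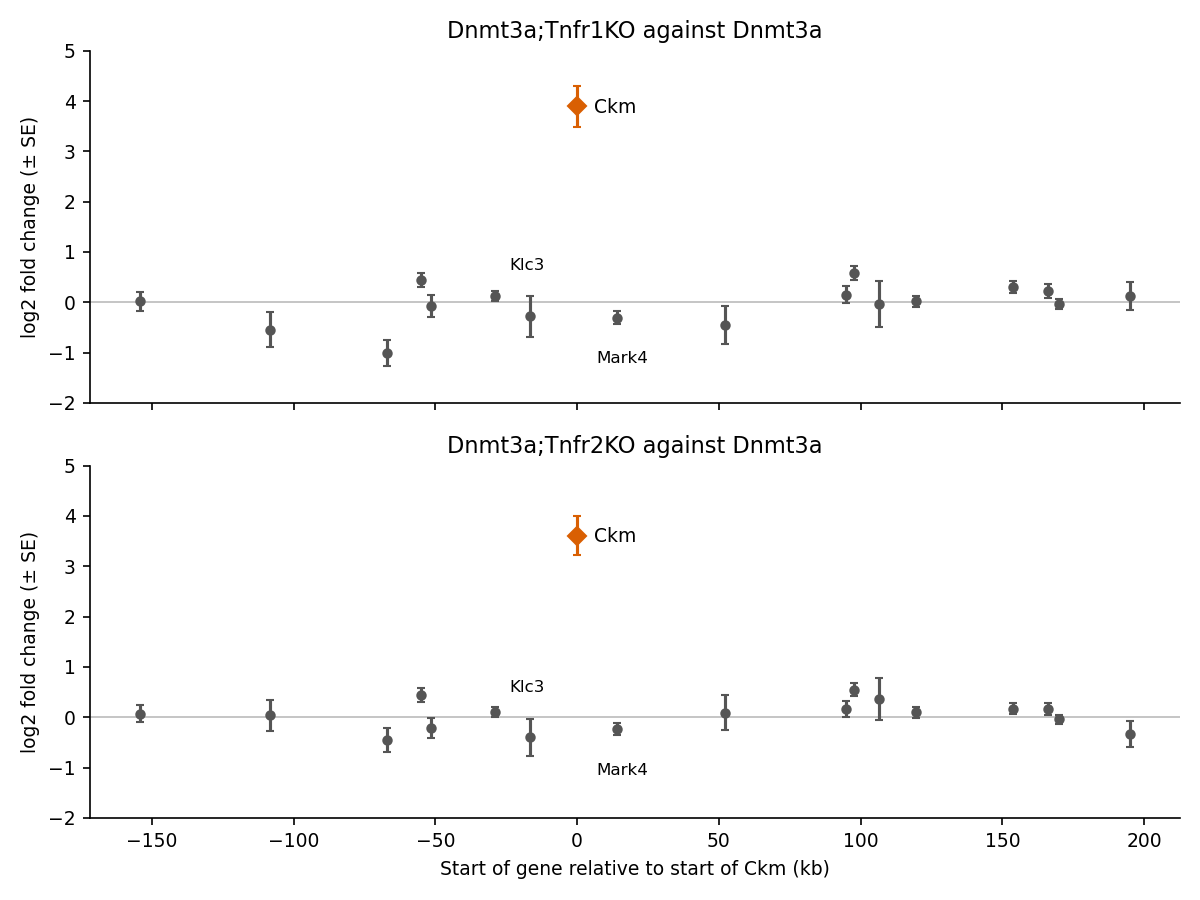
Log2 fold change ± SE against Dnmt3a of Ckm (diamond) and of the 17 tested genes among the 10 protein-coding genes on each side, by the distance of their start from that of Ckm in kb. Ckm lies at 3.90 and 3.61, and the neighbours lie between -1.01 and 0.58.

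The genes whose levels ran most like Ckm over the 14 libraries were found by Pearson's r of log2(CPM + 1). These r describe libraries that share genotype groups, and the genes were picked for them, so no p is given. The 5 highest were Mnd1, a meiotic recombination factor (r = 0.98), Auh, a mitochondrial enzyme of leucine breakdown (0.90), Gm26852 (0.89), Lhfpl4 (0.88) and Dnaaf3, a factor in the assembly of cilia motors (0.87). Mnd1 held 27.8 and 28.6 CPM on average in MxCre and Dnmt3a and 64.5 and 57.7 CPM in Tnfr1KO-labelled and Tnfr2KO. Lhfpl4 held 0.18, 0.259, 4.75 and 5.45 CPM. Dnaaf3 held 1.32, 1.55, 5.77 and 5.81 CPM, and Auh only 26, 26, 30.8 and 30.8 CPM.

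The 5 lowest were Eps8l1 (r = -0.96), 5430431A17Rik (-0.94), Anxa9 (-0.89), Platr14 (-0.89) and Gm43031 (-0.88). Eps8l1, of a family of adaptors to the actin cytoskeleton, held 3.17 and 3.21 CPM in MxCre and Dnmt3a but 0.0554 and 0.0153 CPM in the receptor groups. Platr14 and Gm43031 had 80 and 151 UMIs in all. Anxa9, an annexin, held 5.70 to 6.67 CPM in MxCre and 4.78 to 7.22 CPM in Dnmt3a. It held 0.822, 1.34 and 1.31 CPM in Tnfr1KO-labelled and 1.11, 1.195, 3.88 and 4.02 CPM in Tnfr2KO. Dnaaf3 held 3.50, 3.46, 8.43 and 7.86 CPM in Tnfr2KO replicates 1 to 4.

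**Figure D5:**
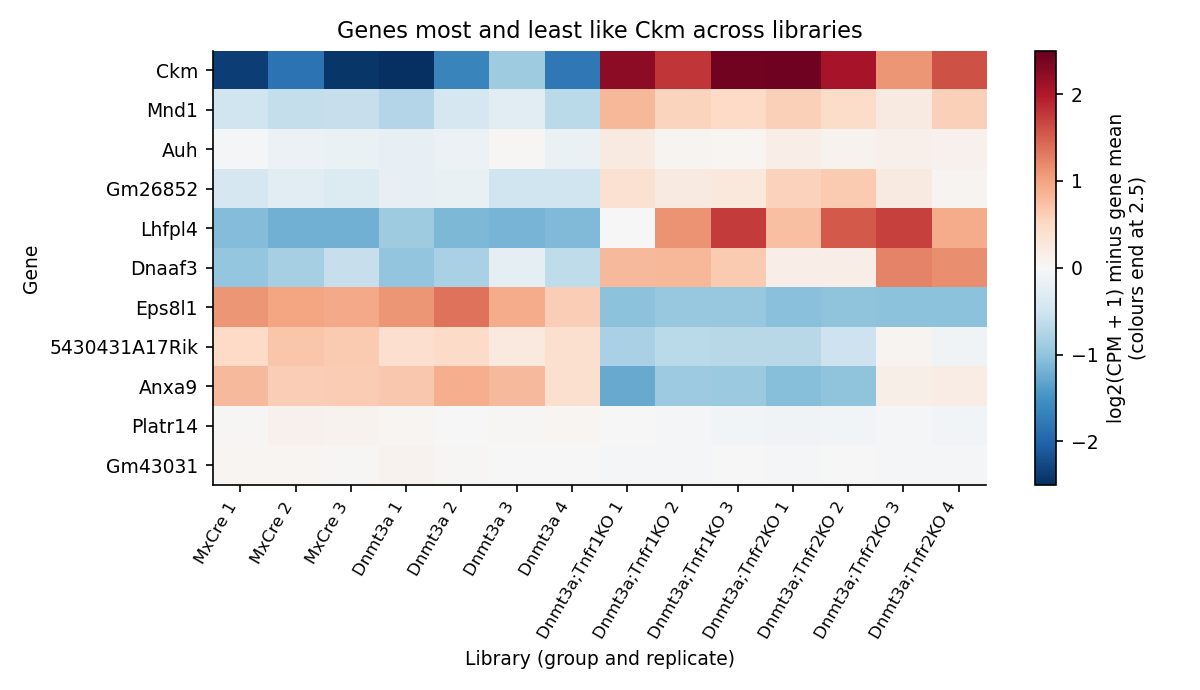
Level of Ckm and of the 5 genes most and 5 genes least like it in each library, as log2(CPM + 1) minus the mean of the gene over the 14 libraries. Red is above and blue below that mean; Ckm, Mnd1 and Dnaaf3 are below their means in the first 7 libraries and above in the last 7, and Eps8l1 the reverse, while Anxa9 is near its mean in Tnfr2KO replicates 3 and 4; for Platr14 and Gm43031 (80 and 151 UMIs in all) it is faint.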

How the data were processed

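The deposited values are UMI counts per gene and cell barcode, 1 matrix for each of 14 mice. Per the submitters' processing notes, bcl2fastq 2.20.0.422, Cell Ranger 6.0.0 and the builds mm10 and GRCm38 were used. Whether counting used strand is not given in the sources used here.

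A cell was kept if it had 1000 or more UMIs, 500 or more detected genes and under 10% mitochondrial UMIs. Simulated doublets were used to remove 0.8% of cells per 1000 cells. Total counts per library were 62416022 to 162869740. Counts were summed per mouse and fitted over the 4 groups with edgeR 4.0.16 (quasi-likelihood test, TMM scaling, filterByExpr) in R 4.3.3, with Benjamini-Hochberg adjustment over 15618 genes, called at 0.05. DESeq2 1.42.0 was an alternative. The scripts were tested on simulated data.

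Cells were placed in 11 lineages by 65 marker genes, with at least 3 marker UMIs from at least 2 markers and a mean standardised level of at least 1. A lineage value needed 20 cells. Lineages were compared within mice by exact sign-flip tests (SciPy 1.17.1). Intervals and floors (3 UMIs) cover counting error only.

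The members and lists were chosen with earlier results of these data known. Named were the members, the targeted genes, 5 creatine genes, the 5 genes on each side of Ckm or any called among 10 on each side, the 5 genes most and 5 least like Ckm, and muscle markers with 10 UMIs in a library together with Acta1, Myh4, Tnnt3, Mylpf and Atp2a1. A further gene of the creatine list is not reported here. Other genes named were chosen after their values were seen. Positions are those of RefSeq on GRCm38.p6. Alternatives changed the scaling, filters, doublets, tool, samples in the model, marker minimum and each mouse in turn.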

Additional observations from a re-analysis of the deposited data

Results flagged for a closer look

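Barcodes with under 1000 UMIs, which were left out as cells, held Ckm above the highest level of the other groups (6.94 CPM, here per 1000000 UMIs of these barcodes, unscaled) in 6 of 7 receptor-labelled libraries. The level was 148 CPM in Tnfr1KO-labelled replicate 1 (269 Ckm UMIs) and 141 CPM in replicate 3 (18 UMIs). In Tnfr2KO replicates 1 to 4 it was 39, 120, 19.6 and 84.5 CPM, on 9, 18, 6 and 11 UMIs. Tnfr1KO-labelled replicate 2 held 0 Ckm UMIs among 66314.

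In 2 of 68 groups of 4 libraries, 1 library stood apart from the others. Bloc1s3, a neighbour of Ckm, held 5.11 CPM in Dnmt3a replicate 1 against 7.46 to 7.61 CPM in the other replicates. Platr14 held 0.0626 CPM in Dnmt3a replicate 2 against 0.0855 to 0.088 CPM, on 5 UMIs. Chance alone flags about 1 in 20 such groups.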

How the results depend on the processing

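The log2 differences of Ckm kept their direction in 61 of 61 alternatives, from 3.65 to 4.28 for Tnfr1KO-labelled and from 3.35 to 3.99 for Tnfr2KO against Dnmt3a, but only 0.25 to 0.87 for Dnmt3a against MxCre and -0.54 to -0.10 between the receptor groups. Ckb kept its direction in 61 of 61 and its side of the threshold in 60, the exception being DESeq2 for Dnmt3a against MxCre (1.52, adjusted p = 0.0263). Ckmt1 could not be fitted. Counts of called genes moved far more. For Dnmt3a against MxCre, 133 genes were called with the replicate block, 8 with only the groups compared in the model, 1525 by DESeq2, and 0 to 1265 leaving out 1 mouse. The 0 came without MxCre replicate 2, where edgeR passed 2959 of 16005 genes at an unadjusted p under 0.05, and the 1265 without Dnmt3a replicate 2. For Tnfr1KO-labelled against Dnmt3a the counts were 618 without TMM factors, 36 with the replicate block, 921 by DESeq2 and 8 to 323 leaving out 1 mouse. For Tnfr2KO against Dnmt3a they were 1565 without TMM factors, 20 with only the groups compared, 1071 by DESeq2 and 30 to 807 leaving out 1 mouse. Between the receptor groups they were 103 by DESeq2 and 18 to 29 leaving out 1 mouse. The cause was not tested.

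By lineage, with the marker minimum doubled, lymphoid-primed Ckm (-21.1 CPM, adjusted exact p = 0.0714) and HSC/MPP Ckb (-1.44 CPM, adjusted exact p = 0.0527) were no longer called. Leaving out 1 mouse, basophil and mast cell Ckm ranged from -10.8 to 2.31 CPM, reversing without Tnfr1KO-labelled replicate 1 (2.31) or Tnfr2KO replicate 3 (0.143). Lymphoid-primed Ckb ranged from 1.48 to 3.96 CPM, and was called without MxCre replicate 1 (3.96) or Tnfr2KO replicate 3 (3.88). B-lymphoid Ckb (-0.286 CPM over 8 mice, adjusted exact p = 0.938) ranged from -2.16 CPM, called without MxCre replicate 1, to 0.449 CPM without Dnmt3a replicate 4, and was 0.22 CPM without Tnfr1KO-labelled replicate 1.

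No consistent pairing by replicate number was seen: the correlation of deviations was above 0.1 in 7 of 19 same-number pairs and ranged from -0.415 to 0.382. These correlations cannot exclude a donor common to several mice, since the labels do not give the donors.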

Other observations

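The genes that separated the 7 receptor-labelled libraries from the other 7 without overlap, with means at least 2-fold apart, were looked up by position. They were chosen after their values were seen, so no test is given. Of these 25 genes, 20 had a RefSeq position. Chromosome 7 held 7 of them among 1111 tested genes (0.63%), and chromosome 3 held 4 among 682 (0.587%). No other chromosome held more than 2, the share being 0.221% on chromosome 5, which held 2.

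On chromosome 7 these were Eps8l1, Dnaaf3, Gm15510, Ccdc106, Vmn2r29, Ckm and 5430431A17Rik, starting at 4460638, 4522933, 5046947, 5053842, 7212996, 19411094 and 44484517. Ckm, Dnaaf3 and Ccdc106 were higher in the receptor-labelled libraries and the other 4 lower. On chromosome 3, Mnd1 was higher while Tdo2, Sh3d19 and Anxa9 were lower, with starts between 81958412 and 95296093. Sh3d19 averaged 1.14 CPM in the receptor-labelled libraries and 4.80 CPM in the others.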
